A study of Mus musculus with 6 samples.

Results

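Chemokines are small secreted proteins that direct the migration of leukocytes and other cells through G protein-coupled receptors, and they are sorted into the CC, CXC and CX3C classes by the spacing of their leading cysteines. In a peripheral nerve they come from fibroblasts, endothelial cells, macrophages and Schwann cells, and Ccl2 is best known for drawing monocytes into injured nerve. Scavenger receptors such as Ackr3 take chemokines up without signalling through G proteins and so limit their spread. Described here are 10 genes of the 55335 in the deposited table, matched by symbol to Ensembl gene ID: the ligands Ccl2, Ccl7, Ccl11, Ccl21a, Cxcl1, Cxcl10, Cxcl12, Cxcl14 and Cx3cl1, and the receptor Ackr3.

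Polyadenylated RNA of sciatic nerve lysate from mice at postnatal day 14 gave 6 sequencing libraries. The 3 control libraries came from RhoAfl/fl mice, homozygous for a floxed allele of the small GTPase RhoA. The 3 icKO libraries came from RhoAfl/fl ChATCreERT2+ mice, which carry the same alleles and a drug-inducible Cre driven by the choline acetyltransferase gene, active in cholinergic cells such as spinal motoneurons. The labels give neither the induction schedule nor whether controls received the inducer, and they name no animal for any library, so a p-value covers just the variation among these libraries, which may be technical. By its title the study asks about RhoA of motoneurons in myelination of the nerve, and compares nerves with and without the Cre. Values are FPKM, fragments scaled by transcript length and library size, so that levels can be compared between genes.

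The depth was estimated at 17200000 to 20600000 fragments per library. Rhoa measured 36.5, 39 and 38.0 FPKM in control against 36.4, 33.6 and 33.2 FPKM in icKO nerves, and the difference did not pass (limma, Benjamini-Hochberg adjusted p = 0.195). The summed level of 10 Schwann cell markers was 29211 to 35229 FPKM. That of 22 skeletal muscle markers was 1474 FPKM in control replicate 1 and 1729 FPKM in icKO replicate 3. In the other libraries the muscle markers summed to 291 and 396 FPKM in control against 27.0 and 42.8 FPKM in icKO nerves. The sex-linked transcripts Xist at 46.1 FPKM and Ddx3y at 0 FPKM set control replicate 2 apart as female. Ddx3y was at 12.5 to 16.1 FPKM in the other 5 libraries, with Xist at 0.028 FPKM or less, as in males. The labels do not give sex, and by these transcripts it was not balanced between the groups. The widely expressed histone gene H1fx was listed at 0 in control replicate 2 and at 6.28 to 11.1 FPKM elsewhere, so a value of 0 may be an estimate that failed. In a lysate, fewer cells of a type and less RNA per cell cannot be told apart.

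The coding sequences that give the classes their names are shown for all 9 ligands. Each stretch is read 5′ to 3′ from the coding strand of a GENCODE M21 transcript (build GRCm38), and the capitals mark the leading cysteine codons.
Ccl2: ctcaccTGCTGCtactca
Ccl7: tccacaTGCTGCtatgtc
Ccl11: acttccTGCTGCtttatc
Ccl21a: caggacTGCTGCcttaag
Cxcl1: ctgcgcTGTcagTGCctgcag
Cxcl10: gtccgcTGCaacTGCatccat
Cxcl12: taccgaTGCcccTGCcggttc
Cxcl14: tccaagTGTaagTGTtcccgg
Cx3cl1: acgaaaTGCgaaatcatgTGCgacaag
The cysteine codons are adjacent in the CC ligands, 1 codon apart in the CXC ligands and 3 codons apart in Cx3cl1. The genes lie on chromosome 11 (Ccl2, Ccl7 and Ccl11), 4 (Ccl21a), 5 (Cxcl1 and Cxcl10), 6 (Cxcl12), 13 (Cxcl14), 8 (Cx3cl1) and 1 (Ackr3).

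The members went different ways in icKO nerves. Ccl7 fell to near 0 and Ccl21a to 2.74 FPKM or less, and Cxcl10 rose. The abundant ligands Ccl11 and Cxcl12 and the receptor Ackr3 did not pass the test. Of the 10 members 9 reached the filter of a mean of 1 FPKM over the 6 libraries, and Cxcl1 did not. Among these 9, 1 rose and 2 fell at an adjusted p under 0.05 (limma, Benjamini-Hochberg over 12860 genes), where 42.9% of all tested genes passed, 20.8% higher and 22.1% lower. The share of members called was thus no larger than that of all genes. The median difference of the 9 members was -0.12 on the log2(FPKM + 1) scale, against -0.01 over all tested genes. In 4 of the 9 the libraries of both groups did not overlap (1 higher and 3 lower in icKO), where 57.2% of all tested genes did not overlap.

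**Figure D1:**
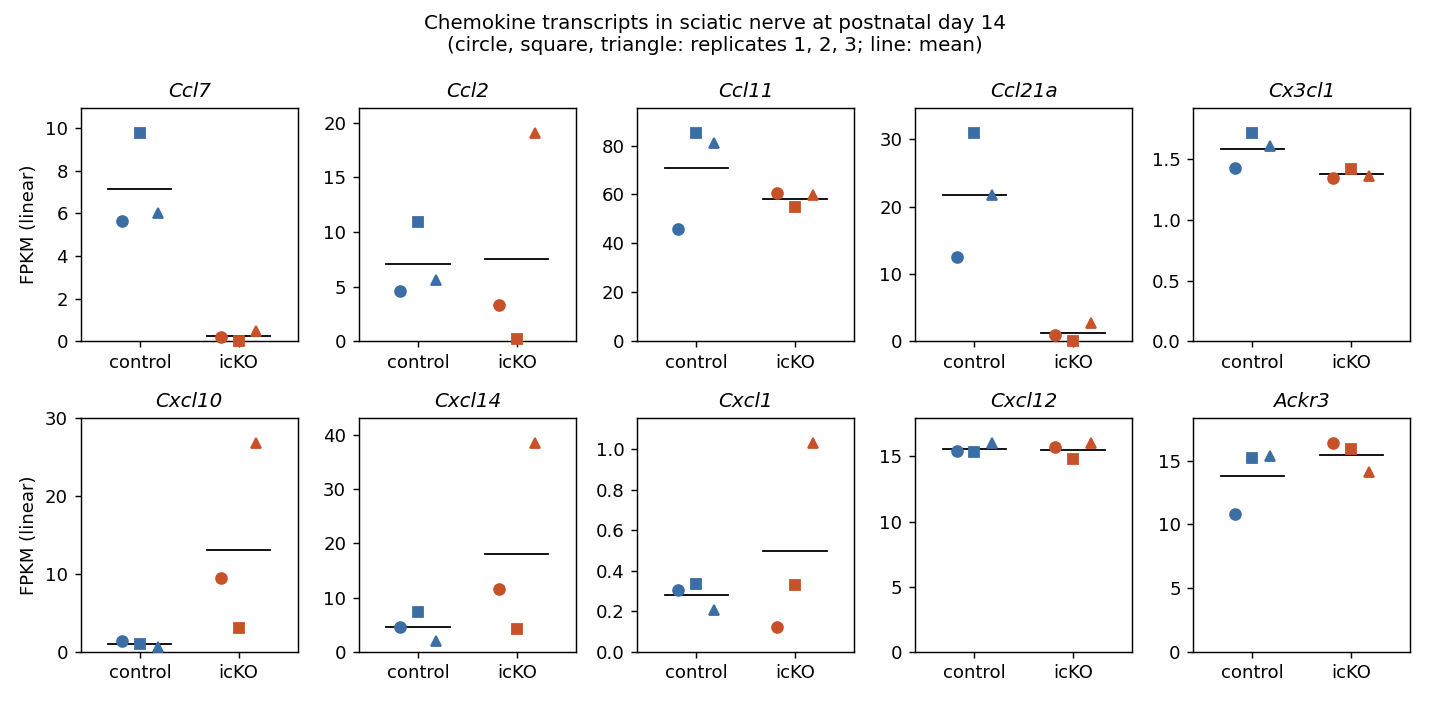
FPKM (linear axis from 0) of the 10 members in 3 control (blue) and 3 icKO (orange) libraries, with the symbol giving the replicate number and the line the group mean. Ccl7 of icKO nerves lies near 0, Ccl21a below every control library and Cxcl10 above every control library. Replicate 3 of the icKO group is far above the other icKO libraries in Ccl2, Cxcl10, Cxcl14 and Cxcl1.

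Ccl7 (ENSMUSG00000035373), which attracts monocytes mainly through Ccr2, measured 5.65, 9.78 and 6.02 FPKM in control against 0.21, 0 and 0.47 FPKM in icKO nerves. All icKO libraries lay far below all control libraries. Given a transcript of 801 bases, the icKO values correspond to about 3, 0 and 7 fragments, against 78 to 162 in control. Ccl7 fell by 2.71 on the log2(FPKM + 1) scale (SE 0.22, limma, Benjamini-Hochberg adjusted p = 0.000622). It passed in each of the 19 alternative fits, and the size depends on the pseudocount, with -6.09 for a pseudocount of 0.01.

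Ccl2 (ENSMUSG00000035385), the main ligand of Ccr2, lies beside Ccl7. It measured 4.63, 10.9 and 5.59 FPKM in control against 3.35, 0.18 and 19.1 FPKM in icKO nerves. Control values lay within the range of the icKO values, whose lowest and highest libraries correspond to about 3 and 303 fragments. The difference was -0.70 (SE 0.95, 95% confidence interval -2.96 to 1.56) and did not pass (limma, Benjamini-Hochberg adjusted p = 0.581). Without icKO replicate 2 the difference was 0.29, without icKO replicate 3 it was -1.75, and without both muscle-rich libraries it was -1.97, and none of these passed (limma, adjusted p = 0.761, 0.0626 and 0.0764). The interval of Ccl2 holds the difference of Ccl7, so these libraries do not show that Ccl2 kept its level. The log2(FPKM + 1) value of Ccl7 minus that of Ccl2 was 0.24, -0.15 and 0.09 in control and -1.85, -0.24 and -3.77 in icKO libraries. This difference between the neighbours was lower in all icKO libraries, in icKO replicate 2 only narrowly, where both genes were near 0 (two-sided exact permutation test, p = 0.1, the smallest that 3 against 3 allows). The pair was chosen after its values were seen.

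Ccl11 (ENSMUSG00000020676), eotaxin, an attractant of eosinophils through Ccr3, was the most abundant member in both groups. It measured 46.1, 85.3 and 81.0 FPKM in control against 60.7, 54.7 and 59.6 FPKM in icKO nerves. The groups overlapped because control replicate 1 was below all icKO libraries. The difference of -0.23 (SE 0.23, interval -0.77 to 0.32) did not pass (limma, Benjamini-Hochberg adjusted p = 0.455). Without control replicate 1 it was -0.51 and passed (limma, adjusted p = 0.0125, and 0.0125 to 0.846 over all alternatives). Eosinophil markers summed to 0.03 to 0.26 FPKM in all 6 libraries, and Ccr3 was at 0.05 FPKM or less.

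Ccl2, Ccl7, Ccl11, Ccl12, Ccl8 and Ccl1 follow each other in this order on chromosome 11 in the RefSeq gene table. Ccl12, another Ccr2 ligand, measured 3.27, 1.83 and 1.54 FPKM in control against 0.10, 0.20 and 0.72 FPKM in icKO nerves. Ccl12 fell by 1.25 (SE 0.25, limma, Benjamini-Hochberg adjusted p = 0.00811). Ccl8, below the filter, measured 1.013, 1.48 and 0.52 FPKM in control against 0, 0 and 0.40 FPKM in icKO nerves. Ccl1 was at 0.02 FPKM or less in all libraries. Within this run of genes Ccl7 and Ccl12 fell, while Ccl2 and Ccl11 on either side of Ccl7 did not pass.

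**Figure D2:**
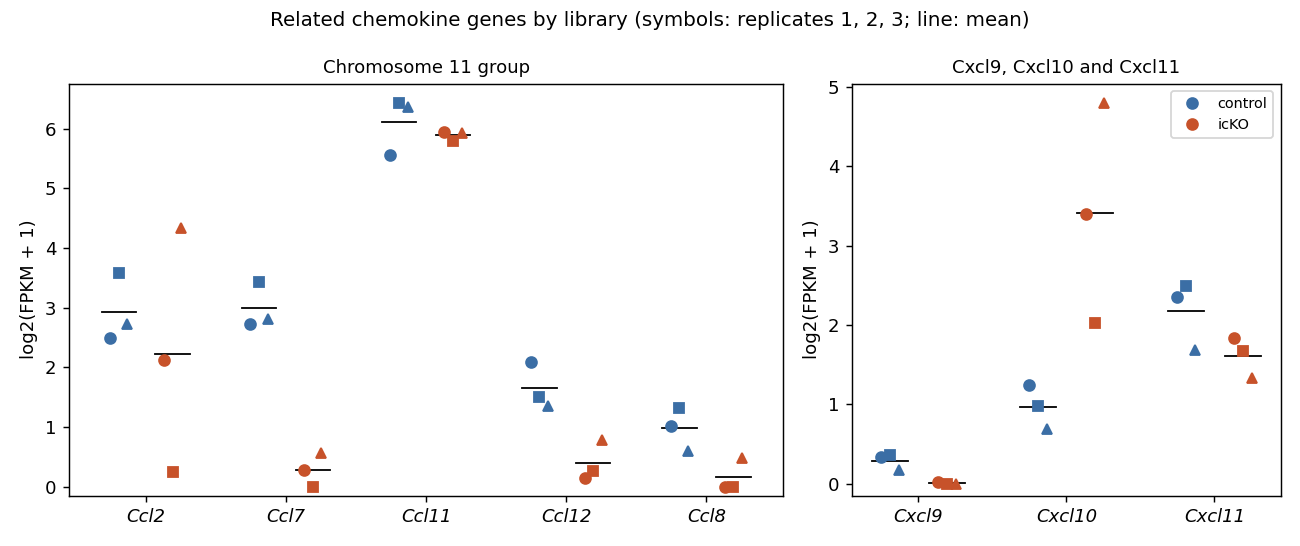
Level as log2(FPKM + 1) of 5 neighbouring chemokine genes of chromosome 11 (left) and of Cxcl9, Cxcl10 and Cxcl11 (right) in control (blue) and icKO (orange) libraries, with symbols for replicates 1, 2 and 3 and lines for group means. Ccl7 and Ccl12 of icKO nerves lie below control while Ccl2 spreads over the whole range, and Cxcl10 lies above control while Cxcl9 lies below it.

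Ccl21a (ENSMUSG00000094686), a lymphoid chemokine that guides dendritic cells and T cells through Ccr7, was second in level among the members in control nerves. It measured 12.5, 31.0 and 21.8 FPKM in control against 0.85, 0 and 2.74 FPKM in icKO nerves. Each icKO library was below each control library, with about 13, 0 and 47 fragments against 188 to 557. Ccl21a fell by 3.49 (SE 0.51, interval -4.72 to -2.27, limma, Benjamini-Hochberg adjusted p = 0.00284) and passed in all 20 alternative fits. Its share of the summed FPKM of 39 chemokine ligand genes was 9.5% to 15% in control and 0% to 1.5% in icKO libraries.

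The level of Ccl21a is uncertain because near-identical copies can share its fragments. The coding sequences of Ccl21b, Gm21541, Gm13304 and Gm10591 each had 99.5% identity with that of Ccl21a over 399 bases, with the same substitutions T84A and C194T (Ccl21a base, position from the A of the start codon, base of the copy). The stretch from base 70 to 99 shows how little separates Ccl21a and Ccl21b, with the differing base in capitals.
Ccl21a: agtgatggagggggTcaggactgctgcctt
Ccl21b: agtgatggagggggAcaggactgctgcctt
Ccl21b measured 0.65, 3.64 and 2.09 FPKM in control against 0.20, 0.26 and 0.22 FPKM in icKO nerves, and the other copies had similar levels. The sum over Ccl21a and the 4 copies was 15.1, 45.6 and 30.1 FPKM in control against 1.44, 0.94 and 3.65 FPKM in icKO libraries. Since the multi-mapping rule is not known, this sum may count the same fragments more than once. The summed copies fell by 3.35 (limma, Benjamini-Hochberg adjusted p = 0.00222). Ccl21b fell by 1.23 (adjusted p = 0.0287), and it did not pass in 5 of the 6 fits without a single library, nor without a filter (adjusted p up to 0.0832).

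Lymphatic endothelium is a possible source of Ccl21 transcripts, and which of the copies it makes was not tested. Of 6 lymphatic endothelial markers 3 were tested. Reln fell, while Lyve1 and Pdpn did not pass. Lyve1, a hyaluronan receptor, measured 2.99, 6.25 and 5.91 FPKM in control against 1.61, 1.06 and 3.77 FPKM in icKO nerves (limma, Benjamini-Hochberg adjusted p = 0.0633). The defining factor Prox1 was at 0.19 to 0.44 FPKM in control against 0.04 to 0.27 FPKM in icKO libraries, and the list summed to 34.3 to 45.3 and 23.9 to 26.9 FPKM. Reln made up most of this sum in control, at 20.4 to 25.0 against 11.3 to 16.3 FPKM. The other 5 markers summed to 10.3, 20.3 and 17.5 FPKM in control against 13.4, 7.65 and 14.8 FPKM in icKO nerves, which overlap. Pdpn made up most of this smaller sum in icKO libraries, at 10.9, 5.82 and 8.86 against 5.82, 10.4 and 8.66 FPKM in control. Lyve1, Prox1, Flt4 and Mmrn1 each had a lower mean in icKO nerves, with overlapping libraries. The mean of Flt4 was 1.05 FPKM in control against 0.77 in icKO nerves, and that of Mmrn1 1.32 against 0.39, both below the filter. Ccl19, the other ligand of Ccr7, measured 0.85, 0.59 and 0.88 FPKM in control against 0.12, 0 and 0 FPKM in icKO nerves, below the filter. Ccr7 was at 0.15 FPKM or less in every library. The part of lymphatic cell number in the fall of Ccl21a was not tested.

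Cxcl10 (ENSMUSG00000034855), an interferon-inducible ligand of Cxcr3, was the member that rose. It measured 1.37, 0.97 and 0.61 FPKM in control against 9.50, 3.08 and 26.8 FPKM in icKO nerves. All icKO libraries were above all control libraries, and they differed widely among themselves. Cxcl10 rose by 2.43 on the log2(FPKM + 1) scale (SE 0.63, interval 0.92 to 3.95, limma, Benjamini-Hochberg adjusted p = 0.0213). The call was lost without control replicate 2 (adjusted p = 0.0569), control replicate 3 (0.0673) or icKO replicate 1 (0.0604) and without a filter (0.0537), at 0.005 to 0.0673 over all 20 alternatives.

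For Cxcl9 and Cxcl11, the other ligands of Cxcr3, no rise was called. Cxcl11 measured 4.11, 4.61 and 2.21 FPKM in control against 2.55, 2.20 and 1.53 FPKM in icKO nerves, a difference of -0.56 that did not pass (limma, Benjamini-Hochberg adjusted p = 0.0961). Cxcl9, below the filter, measured 0.26, 0.29 and 0.13 FPKM in control against 0.02, 0 and 0 FPKM in icKO nerves. The log2(FPKM + 1) value of Cxcl10 minus that of Cxcl11 was -1.11, -1.51 and -0.99 in control and 1.56, 0.35 and 3.46 in icKO libraries. Cxcl10 was the lower of the pair in every control library and the higher in every icKO library (two-sided exact permutation test, p = 0.1, the smallest that 3 against 3 allows). This pair, too, was chosen after its values were seen. The interferon regulatory factor gene Irf7 fell, from 3.72 ± 2.67 to 0.48 ± 0.22 FPKM (SD, n = 3 each), and Cxcr3 was at 0.11 FPKM or less.

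The promoters of Cxcl10 and Cxcl9 are shown because these related genes lay on opposite sides of control. The pair was thus chosen after its values were seen. Both are RefSeq sequences of build GRCm38.p6, from 250 bases before to 50 bases after the start, whereas the deposited values name build GRCm39. The Cxcl10 promoter is at chr5:92348840-92349139 and that of Cxcl9 at chr5:92328030-92328329, both on the minus strand. Capitals mark matches on either strand to the kappaB consensus, to the core of the interferon-stimulated response element (a pair of GAAA runs around any 2 bases) and to TGANTCA (AP-1).
Cxcl10: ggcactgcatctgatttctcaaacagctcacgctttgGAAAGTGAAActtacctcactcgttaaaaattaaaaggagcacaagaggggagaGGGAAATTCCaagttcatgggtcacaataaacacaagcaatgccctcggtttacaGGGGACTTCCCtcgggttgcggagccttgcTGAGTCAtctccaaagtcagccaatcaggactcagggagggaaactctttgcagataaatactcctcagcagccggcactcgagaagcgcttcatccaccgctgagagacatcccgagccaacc
Cxcl9: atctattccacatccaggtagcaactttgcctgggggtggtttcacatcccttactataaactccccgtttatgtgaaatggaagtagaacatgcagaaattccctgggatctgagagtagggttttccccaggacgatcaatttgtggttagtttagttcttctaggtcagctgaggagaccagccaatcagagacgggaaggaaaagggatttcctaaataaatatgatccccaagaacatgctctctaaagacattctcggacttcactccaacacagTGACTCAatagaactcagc
The Cxcl10 window held 3 kappaB matches, of which the farthest began 159 bases before the start and 2 overlapped, 1 interferon-type match and 1 AP-1 match. The Cxcl9 window held 1 AP-1 match, past the start. Of the 7 members matched in the promoter table, all but Ccl2, Ccl7 and Ccl11, the kappaB consensus was found in 2 (Cxcl1 and Cxcl10), where 8.46% of 32851 promoters of this length hold it. The interferon-type core was found in 2 (Cxcl10 and Cxcl14) against 3.44%, and TGANTCA in 1 (Cxcl10) against 7.81%. Also searched were TATAAA, found in 2 of the 7 against 13.62% of all promoters, and the glucocorticoid response element, found in none against 0.04%; these are not capitalised. Of the other members with a kappaB or interferon-type match, Cxcl1 was below the filter and Cxcl14 did not pass. A match describes the letters and not a bound site, and the part of these matches in the levels was not tested.

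Cxcl12 (ENSMUSG00000061353), a constitutive ligand of Cxcr4 that supports migration and survival of many cell types, was nearly level over the 6 libraries. It measured 15.5, 15.3 and 16.03 FPKM in control against 15.7, 14.8 and 16.01 FPKM in icKO nerves. The difference of -0.01 (SE 0.07, interval -0.18 to 0.16) did not pass (limma, Benjamini-Hochberg adjusted p = 0.936). Its sign changed with median-of-ratios or quantile scaling. Its signalling receptor Cxcr4 measured 1.24, 1.77 and 1.51 FPKM in control against 0.996, 1.25 and 1.56 FPKM in icKO nerves, which did not pass either (limma, adjusted p = 0.403).

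Ackr3 (ENSMUSG00000044337), which binds and internalises Cxcl12 and Cxcl11, was about as abundant as Cxcl12 and far above Cxcr4. It measured 10.8, 15.2 and 15.4 FPKM in control against 16.4, 15.9 and 14.1 FPKM in icKO nerves. The groups overlapped, and control replicate 1 was the lowest library. The difference of 0.17 (SE 0.15, interval -0.18 to 0.51) did not pass (limma, Benjamini-Hochberg adjusted p = 0.384). The log2(FPKM + 1) value of Ackr3 minus that of Cxcl12 differed by 0.18 between the groups (two-sided exact permutation test, p = 0.5).

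Cxcl14 (ENSMUSG00000021508), a constitutive chemokine of epithelia and fibroblasts; its icKO libraries were spread widely. It measured 4.57, 7.27 and 2.03 FPKM in control against 11.6, 4.19 and 38.5 FPKM in icKO nerves. Both icKO replicates 1 and 3 were above all control libraries, and icKO replicate 2 was within their range. The difference of 1.403 (SE 0.73, interval -0.35 to 3.15) did not pass (limma, Benjamini-Hochberg adjusted p = 0.164). Without icKO replicate 2 it was 2.10 and passed (limma, adjusted p = 0.0456), and with the muscle transcript level as a covariate it was 1.97 and passed (0.0425). Without the muscle-rich control replicate 1 and icKO replicate 3 it was 0.69 (0.421).

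Cx3cl1 (ENSMUSG00000031778), fractalkine, is made as a membrane-bound ligand and is shed by the proteases Adam10 and Adam17 to act on Cx3cr1 of macrophages. It measured 1.43, 1.72 and 1.61 FPKM in control against 1.35, 1.42 and 1.37 FPKM in icKO nerves. The groups did not overlap by a narrow margin, and the difference of -0.12 (SE 0.09, interval -0.34 to 0.10) did not pass (limma, Benjamini-Hochberg adjusted p = 0.323). Cx3cr1 measured 1.44, 4.49 and 3.22 FPKM in control against 2.09, 1.26 and 1.82 FPKM in icKO nerves (limma, adjusted p = 0.205), and it passed as lower without control replicate 1. The sheddase transcripts moved more than the ligand. Adam10 fell by 0.93 (limma, adjusted p = 0.000666), from 144 ± 8.81 to 75.0 ± 0.98 FPKM, and Adam17 fell by 0.73 (limma, adjusted p = 0.00599). Cxcl16, another membrane-bound chemokine that Adam10 sheds, was at 1.36 to 1.91 FPKM in control against 1.10 to 1.29 FPKM in icKO libraries, a difference of -0.29 that did not pass (limma, adjusted p = 0.0816).

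Cxcl1 (ENSMUSG00000029380), a neutrophil attractant, was too low to test with the others. It measured 0.30, 0.33 and 0.21 FPKM in control against 0.12, 0.33 and 1.03 FPKM in icKO nerves, about 2 to 19 fragments each. The groups overlapped, and the highest value was that of icKO replicate 3. In the fit without a filter its difference was 0.18 (limma, Benjamini-Hochberg adjusted p = 0.607). Neutrophil markers summed to 0.40 to 1.26 FPKM in 5 libraries and to 5.76 FPKM in icKO replicate 3.

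By level, Ccl11 led in both groups, and its lowest library was above the highest library of the next gene. In control nerves Ccl21a, Cxcl12 and Ackr3 followed without a gap between neighbours in the order. Ccl7, Ccl2 and Cxcl14 formed the next run, again overlapping, and Cx3cl1, Cxcl10 and Cxcl1 stood below, each apart from the next. In icKO nerves the order from Cxcl14 down to Ccl7 had no gap between neighbours, since Cxcl14, Cxcl10 and Ccl2 each spread over a wide range. Ccl21a moved from the second place to the eighth and Ccl7 from the fifth to the last, while Cxcl10 moved from the ninth to the fifth. The summed FPKM of 39 ligand genes was 132, 207 and 179 in control and 122, 97.6 and 183 in icKO libraries, so the groups overlapped. Ccl11 gave 32.5% to 56.0% of this sum, and Cxcl10 gave 0.3% to 1.0% in control and 3.1% to 14.6% in icKO libraries.

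**Figure D3:**
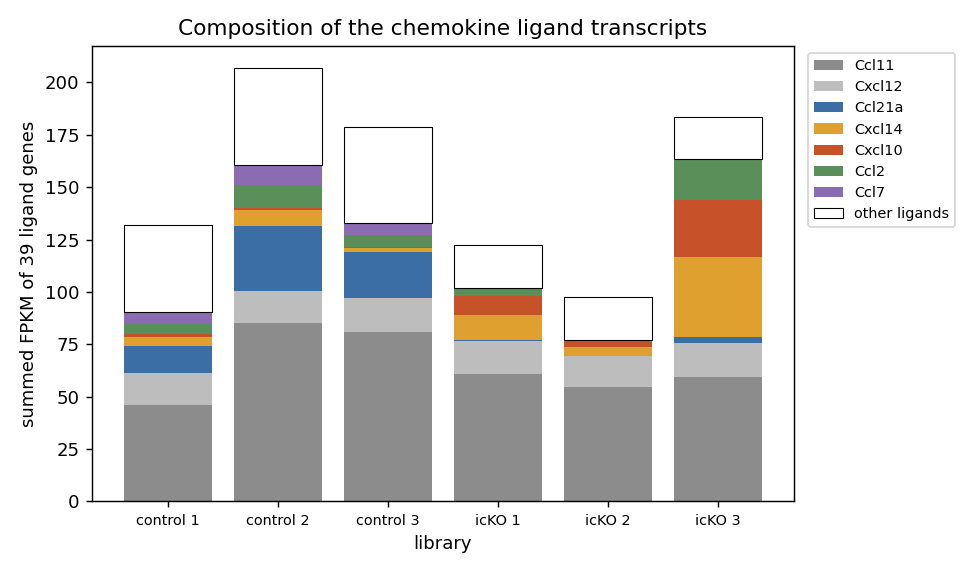
Summed FPKM of 39 chemokine ligand genes in each library, with 7 members as coloured segments and all other ligands in white. Ccl21a takes 9.5% to 15% of the control bars and at most 1.5% of the icKO bars, and the bar of icKO replicate 3 is raised by Cxcl14, Cxcl10 and Ccl2.

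The highest and lowest values of the members within a group fell unevenly over the libraries, as did those of all tested genes. Among the icKO libraries 6 of the 9 tested members were highest in replicate 3 (Ccl2, Ccl7, Ccl21a, Cxcl10, Cxcl12 and Cxcl14), where 41.7% of all tested genes were highest there. For Cxcl12 the margin was small, at 16.01 against 15.7 and 14.8 FPKM, and Ccl7 stood at about 7 fragments or fewer. Replicate 2 was the lowest for 7 of the 9, against 40.8% of all tested genes. Among the control libraries 6 of the 9 were lowest in replicate 1, against 46.5% of all tested genes. Replicate 2, the control library set apart by Xist and Ddx3y, was the highest for 6 of the 9 (Ccl2, Ccl7, Ccl11, Ccl21a, Cxcl14 and Cx3cl1), against 39.5% of all tested genes, and its part in their levels was not tested. Without it, Ccl7 and Ccl21a passed as lower (limma, Benjamini-Hochberg adjusted p = 0.0026 and 0.0115). Replicate 3 of the icKO group and control replicate 1 are the muscle-rich libraries. Without both, Ccl7, Ccl21a and Cxcl10 passed in the same directions (limma, Benjamini-Hochberg adjusted p = 0.00384, 0.00371 and 0.034), and Ccl11 passed as lower (0.0176). The muscle markers of the remaining libraries still differed by group, so muscle content and group cannot be told apart in that fit.

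Of the 10 other chemokine ligands that could be tested 5 fell and 1 rose, where 22.1% of all tested genes fell and 20.8% rose. The 5 include Ccl21b, the near-identical copy of Ccl21a whose call was lost in 6 of 18 alternatives. Of 5 tested CC ligands outside the members 3 fell (Ccl12, Ccl21b and Ccl27a) and none rose. Ccl6, at 2.56, 4.96 and 8.16 FPKM in control against 2.25, 2.73 and 3.16 FPKM in icKO nerves, and Ccl9, at 1.51, 3.81 and 3.63 against 1.63, 1.46 and 2.32 FPKM, did not pass (limma, Benjamini-Hochberg adjusted p = 0.145 and 0.202), and both passed as lower without control replicate 1. Of 5 tested CXC ligands 2 fell (Pf4 and Ppbp), Cxcl13 rose, and Cxcl11 and Cxcl16 did not pass. The platelet chemokine Pf4, also made by macrophages, fell from 11.7 ± 1.53 to 2.83 ± 0.46 FPKM, and Ppbp, a platelet chemokine, measured 7.58, 1.46 and 3.62 FPKM in control against 0.23, 0.10 and 0.47 FPKM in icKO nerves. Ccl27a, a skin chemokine, fell from 4.51 ± 0.69 to 1.72 ± 0.96 FPKM. The B cell attractant Cxcl13 rose from 0.22 ± 0.15 to 2.18 ± 1.06 FPKM (SD, n = 3 each; limma, Benjamini-Hochberg adjusted p = 0.00682). B cell markers summed to 0.65 FPKM or less in each library.

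**Figure D4:**
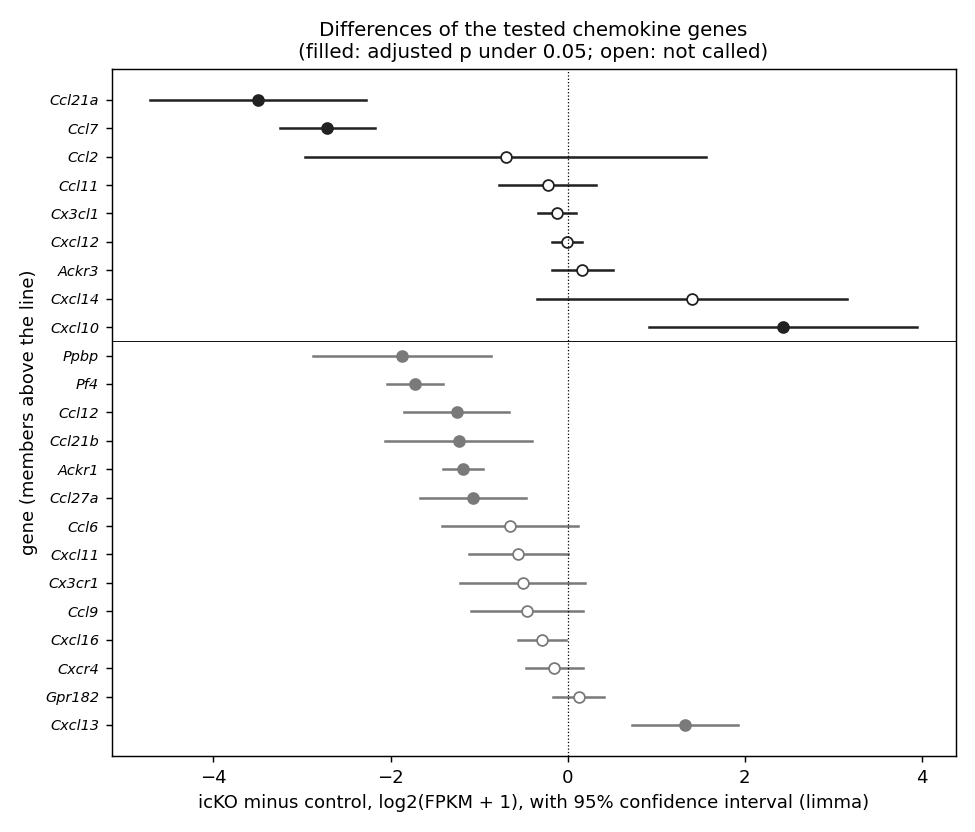
Difference of icKO minus control on the log2(FPKM + 1) scale with its 95% confidence interval from limma, for the 9 tested members (above the line) and the 14 other tested chemokine ligands and receptors (below). Filled points passed an adjusted p of 0.05: Ccl21a and Ccl7 at -3.49 and -2.71, Cxcl10 at 2.43, and among the others 6 lower and Cxcl13 higher.

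Receptors were sparse in the lysate. Of 18 signalling chemokine receptors only Cxcr4 and Cx3cr1 reached a mean of 1 FPKM, and neither passed. Ccr2, which binds Ccl2, Ccl7 and Ccl12, measured 0.53, 1.80 and 1.25 FPKM in control against 0.34, 0.37 and 0.31 FPKM in icKO nerves, below the filter. The scavenger receptor of venular endothelium, Ackr1, was the most abundant of the receptor genes in control nerves, and it fell from 40.8 ± 1.02 to 17.5 ± 2.01 FPKM (SD, n = 3 each), by 1.18 (SE 0.10, limma, Benjamini-Hochberg adjusted p = 0.000612). Gpr182, an atypical receptor of endothelium, was at 0.86 to 1.122 and 0.96 to 1.33 FPKM and did not pass. Of 10 blood endothelial markers 5 fell and 1 rose, where 22.1% of all tested genes fell and 20.8% rose. The list summed to 142 to 146 FPKM in control against 97.7 to 112 FPKM in icKO libraries. The part of endothelial content in the level of Ackr1 was not tested.

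Genes that act before and after the chemokines were read from lists fixed with earlier results of these data known. Their counts stand beside shares of 20.8% of all tested genes that rose and 22.1% that fell. Of 13 tested inducing cytokines and their receptors 1 rose, Tnfrsf1a, the main receptor for TNF, from 19.5 ± 3.33 to 31.4 ± 3.77 FPKM, none fell, and the median difference was -0.03. The cytokines Tnf, Il1b and Il6 were at 0.28 FPKM or less in all libraries. Of 21 NF-kappaB and STAT or IRF factors 5 rose and 6 fell, with a median of 0.03. The inhibitor gene Nfkbia, itself induced by NF-kappaB, rose from 30.3 ± 5.65 to 74.5 ± 9.80 FPKM, and Nfkbib rose from 23.1 ± 1.37 to 62.2 ± 11.3 FPKM. Among those that fell was the kinase subunit gene Ikbkg, from 2.55 ± 0.67 to 1.02 ± 0.33 FPKM (SD, n = 3 each). Among the icKO libraries 13 of the 21 were highest in replicate 3, against 41.7% of all tested genes. Nfkb2 was at 10.4, 8.20 and 17.3 FPKM and Tnfaip3 at 2.74, 1.61 and 5.78 FPKM in the icKO libraries, while Nfkbiz was at 4.22, 3.66 and 3.68 FPKM and Nfkb1 at 6.12, 6.42 and 6.42 FPKM and were not raised in replicate 3.

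Of 14 tested genes of shedding, cleavage and retention of chemokines 4 rose and 4 fell, with a median of -0.11. Over all tested genes 20.8% rose and 22.1% fell, and both counts of this paragraph stand beside these shares. Sdc3, a heparan sulfate proteoglycan, and Hs2st1, which sulfates heparan chains that hold chemokines, rose by 0.52 and 0.56 (limma, Benjamini-Hochberg adjusted p = 0.00582 and 0.00299). Of 12 tested genes of receptor signalling none rose and 3 fell, with a median of -0.15. Gnai2, the G protein subunit through which most chemokine receptors signal, fell by 0.53, and the receptor kinase gene Grk5 by 0.57 (adjusted p = 0.00429 and 0.00551).

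The markers of cell types that could carry these transcripts did not all keep their level. Over all tested genes 22.1% fell and 20.8% rose. None of 12 tested macrophage markers passed, with a median of -0.38 and a summed level of 127 to 276 FPKM in control against 146 to 154 FPKM in icKO libraries, and 11 of the 12 were lowest among controls in replicate 1. Below the filter, Itgam, Aif1 and Fcgr1 were lower in every icKO library than in any control library. Their means were 1.19, 1.15 and 1.13 FPKM in control against 0.13, 0.48 and 0.47 FPKM in icKO nerves. Of 10 fibroblast markers 5 fell and 1 rose, with sums of 1057 to 1991 and 815 to 847 FPKM, and all 7 adipocyte markers fell, with sums of 466 to 571 and 102 to 170 FPKM. Of 9 mural cell markers 3 fell and none rose, and of 6 perineurial markers 2 fell and none rose. Of 10 Schwann cell markers 2 rose and 2 fell, near the shares of all tested genes. Of 4 tested mast cell markers none passed, and T cell markers summed to at most 1.37 FPKM. The part of these cell types in the levels of the chemokines was not tested.

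The genes whose log2(FPKM + 1) over the 6 libraries was most like a member were taken by Pearson's r, as a description over 6 points that share group and library. They were 2610002M06Rik, Nomo1 and Tapbpl for Ccl7 (r = 0.999, 0.999 and 0.998), Ggcx, Zfp658 and Hspa13 for Ccl21a (0.999, 0.998 and 0.997), and Mocs1, Ccn1 and Twnk for Cxcl10 (0.997, 0.996 and 0.995). For Ackr3 they included Carhsp1 and Gm27671 (0.980 and 0.972). For Ccl2 they were Samd4, Ifrd2 and Rab10 (0.996, 0.991 and 0.991), and for Ccl11 they were Gm38158, B4galt1 and Rab3d (0.999, 0.990 and 0.987). Those of Cxcl12 were Gm10222, mt-Nd4l and Armt1 (0.995, 0.994 and 0.982), and those of Cxcl14 were Sf3b4, mt-Th and Dok3 (0.992, 0.990 and 0.988). Those of Cx3cl1 were Clec4a3, Ergic2 and 2900097C17Rik (0.9998, 0.993 and 0.992).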

How the data were processed

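The values are FPKM as the authors deposited them, for 55335 Ensembl gene IDs with 1 column per library (6 in all). Build GRCm39 and the tools DESeq2 1.16.1, StringTie 1.3.1c, STAR and FastQC 0.11.2 are named in the submitters' processing notes, without their roles. The sources used here do not give the annotation release, strand or multi-mapping rules. Columns were matched to samples by title. Symbols came from GENCODE M21 (GRCm38), matched by ID for 55154 genes, and 181 had none. Of 258 list entries 257 were matched.

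The test, two-sided, was that of limma 3.58.1 (R 4.3.3), fitted to log2(FPKM + 1) with a variance trend and no covariate over the 12860 genes whose mean reached 1 FPKM. P-values were adjusted by Benjamini-Hochberg over these genes and called under 0.05. Differences on this scale understate the change of low genes, and rose and fell refer to calls in icKO relative to control. Exact permutation tests used scipy 1.17.1. The depth and the fragments behind a value were estimated from the steps of FPKM under 0.3 in genes with 1 transcript, since the table holds no counts. The procedure was tested on simulated data. All members are named, with every tested ligand and receptor, the 2 smallest p in each direction of the other pathway lists, and the 3 genes most correlated with each tested member. Other genes named were chosen after their values were seen. Some genes that this rule names are not reported here. The members and lists were chosen with earlier results of these data known. Alternatives changed the pseudocount (0.1 and 0.01), filter, scaling, variance model, replicate block, muscle covariate and libraries included.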

Additional observations from a re-analysis of the deposited data

How the results depend on the processing

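The count of 5516 genes called was 3308 with a filter of a mean of 5 FPKM, where fewer genes (6888) were tested, and of the members 2 then passed. It was 3750 to 5458 when single libraries were left out, with 2 to 4 members called, and no scaling moved the median of all genes by over 0.1. Ccl7 and Ccl21a were called as lower in every alternative in which they were tested. Ccl2, not called, had a difference of 0.006 with the muscle covariate and, with single libraries left out, -1.747 (without icKO replicate 3) to 0.294 (without icKO replicate 2). Cxcl12, not called, had differences of 0.008 with median-of-ratios scaling, 0.013 with quantile scaling and 0.006 with the muscle covariate, and -0.03 to 0.024 with single libraries left out. The cause was not tested. With the replicate block 4596 genes and 3 members were called. Same-numbered libraries did not deviate together (r = -0.10, 0.04 and -0.06). Correlations within groups of 3 cannot exclude a pairing, and the labels do not give one. The sum of Ccl21 copies was added after the data were seen. The low depth behind Ccl7 in icKO libraries and behind Cxcl1 limits their precision.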
